A study of Mus musculus with 27 samples.

Results

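Mcm2 to Mcm7, which encode the replicative helicase, and the Myc family genes Myc and Mycn were followed through 10 days of differentiation of mouse embryonic stem cells. These 8 genes are part of the 13297 genes tested. They were found by gene symbol in the annotation of the array platform, and of several probe sets for a gene the brightest, by its mean on the 27 arrays, was used. 23 probe sets carried 1 of the 8 symbols, and 22 of them passed a filter on low values. The exception was the third probe set of Mcm6.

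All cells came from the AB2.2 embryonic stem cell line and carried a lentivirus that makes enhanced green fluorescent protein and a short hairpin RNA (shRNA). The hairpin targeted Sox17, a transcription factor of the endoderm, in the Sox17 shRNA arm, and firefly luciferase, a gene that mouse cells lack, in the control arm. Cells sorted for green fluorescence formed embryoid bodies in hanging drops, which were plated after 4.5 days. RNA was taken on 7 days (0, 2, 4, 5, 6, 8, 10) from 2 cultures per arm and day, labelled as biological replicates, except that only 1 array represents day 0 of Sox17 shRNA cells. Values are log2 signals, so a difference of 1 is a 2-fold change, and levels of different genes cannot be compared. P-values come from limma with Benjamini-Hochberg adjustment over all tested genes. A gene is said to rise or fall, or to be higher or lower between arms, where its adjusted p was below 0.05.

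The Mcm2 to Mcm7 proteins form a ring of 6 subunits that the origin recognition complex, Cdc6 and Cdt1 load around DNA before S phase. This loading, called licensing, lets each origin fire no more than a single time per cycle, and the loaded ring becomes the motor of the replication fork when Cdc45 and the GINS complex join it. Myc and Mycn are basic helix-loop-helix factors that pair with Max and bind E-boxes at genes of growth, ribosome production and cell cycle entry. Embryonic stem cells cycle fast with a short gap before S phase, express Mycn strongly, and slow their cycle as they differentiate. E2F factors drive transcription of replication genes at the entry into S phase.

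The promoters of the members are shown because the Mcm genes declined together and replication genes are known for E2F sites near their starts. The RefSeq promoter table of build GRCm38.p6, with 250 bases before and 50 bases after each start, held 7 promoters of 6 of the 8 members, without Mcm4 and Myc. A search of both strands for TTTGGCGC or TTTCGCGC, overlapping matches counted, found at least 1 match in 5 of these 6 genes. Counted by promoter rather than by gene, the share was 0.813% in all 32851 promoters of the table, and 1.46% in the 13640 promoters of tested genes. The sequences of Mcm5 (chr8:75109259-75109558, plus strand), Mcm6 (chr1:128359656-128359955, minus strand), Mycn (chr12:12941787-12942086, minus strand) and Mcm2 (chr6:88898731-88899030, minus strand) read as follows from 5′ to 3′, with matches in capitals and overlapping matches as a single run.
Mcm5: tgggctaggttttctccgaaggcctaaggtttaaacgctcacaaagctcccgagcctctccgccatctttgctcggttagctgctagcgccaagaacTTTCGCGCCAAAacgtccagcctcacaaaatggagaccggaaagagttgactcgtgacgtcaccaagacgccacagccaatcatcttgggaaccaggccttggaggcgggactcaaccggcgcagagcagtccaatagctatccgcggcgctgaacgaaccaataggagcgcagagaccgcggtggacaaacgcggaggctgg
Mcm6: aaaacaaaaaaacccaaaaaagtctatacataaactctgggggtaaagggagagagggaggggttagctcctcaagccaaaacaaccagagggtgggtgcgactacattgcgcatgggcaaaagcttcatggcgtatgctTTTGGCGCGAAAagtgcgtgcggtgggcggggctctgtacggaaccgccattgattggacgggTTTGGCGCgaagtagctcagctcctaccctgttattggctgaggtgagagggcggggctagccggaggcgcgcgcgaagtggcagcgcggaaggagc
Mycn: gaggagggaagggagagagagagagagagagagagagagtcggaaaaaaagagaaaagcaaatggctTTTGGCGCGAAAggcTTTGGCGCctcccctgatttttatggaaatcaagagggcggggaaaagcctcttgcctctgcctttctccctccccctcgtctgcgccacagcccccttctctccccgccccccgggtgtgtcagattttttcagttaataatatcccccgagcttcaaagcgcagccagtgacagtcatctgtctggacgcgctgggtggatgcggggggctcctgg
Mcm2: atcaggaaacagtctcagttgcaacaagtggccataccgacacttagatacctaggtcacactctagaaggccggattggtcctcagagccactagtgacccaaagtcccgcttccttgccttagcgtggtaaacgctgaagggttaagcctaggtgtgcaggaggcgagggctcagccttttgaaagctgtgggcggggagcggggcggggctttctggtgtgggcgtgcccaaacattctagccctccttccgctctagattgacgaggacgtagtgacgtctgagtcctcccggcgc
Mcm5 held 2 overlapping matches on opposite strands, with first bases at -153 and -149 from the start. Mcm6 held 3 matches, at -110, -106 and -47, and Mycn held 3, at -183, -179 and -168. Mcm3 (chr1:20820263-20820562, minus strand) held 1 match at 39 and Mcm7 (chr5:138171834-138172133, minus strand) 1 at 17, both after the start, while a second Mcm7 promoter (chr5:138171217-138171516) held none. The Mcm2 window held no match. The E-box CACGTG was in none of the 7 promoters, against 7.15% of all promoters. CCAAT, the site of the factor NF-Y, was in each of the 6 Mcm promoters, overlapping the E2F-type match in that of Mcm7, and not in that of Mycn, against 37.4% of all promoters. These are matches of letters in a window and do not show binding.

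The arrays of a group correlated at r between 0.964 and 0.998 over the genes tested. The signal of the bioB hybridisation spike-in was 8.86 to 9.37 on all arrays of days 0 and 2 and on replicate 1 of day 4 in both arms, and 6.19 to 7.67 on the other arrays, so comparisons of late with early days cross a change in this signal. Sox17 itself was at 3.69 to 3.92 on the day 0 arrays of both arms. In control cells it was between 9.35 and 10.66 on days 4 to 10. Replicates 1 and 2 of the Sox17 shRNA arm read 5.53 and 9.39 on day 4, 7.77 and 10.08 on day 5, 8.60 and 9.39 on day 6, 7.90 and 8.54 on day 8, then 6.71 and 7.19 on day 10. Replicate 1 thus had the lower Sox17 signal on each of these days. On days 4, 5 and 6 replicate 2 lay within the control range of days 4 to 10. On day 6 it also lay within the control range of that day, 9.35 to 9.83. Over days 4 to 10 Sox17 was lower in the Sox17 shRNA arm by -2.00 (SE 0.358, adjusted p = 0.000363).

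All 6 Mcm genes fell between day 0 and day 10 in control cells, by 0.71 to 1.60 on the log2 scale or 1.64 to 3.03-fold, and Myc and Mycn did not pass the test. The 6 falls among 8 members stand beside 40.0% of all tested genes called lower, and the median difference over all tested genes was -0.13. The array medians of the tested genes were 7.4 and 7.38 at control day 0, and 7.50 and 7.51 at day 10. Centring the arrays on these medians does not remove this shift, and the control falls then ran from -0.83 to -1.71. With Sox17 shRNA the same 6 Mcm genes and Mycn fell, 7 of 8 members, beside 35.6% of all genes called lower and a median of -0.135. These counts depend on the processing. In control cells 7 members, Mycn among them, were lower with centred arrays or with the mean of all probe sets. The same held with the bioB signal as a covariate and in the fit of only the groups compared. With Sox17 shRNA some alternatives gave 6. The counts therefore do not show a difference between arms. In whole cultures, fewer cells of a dividing type and less of a transcript per cell cannot be told apart. All later days of an arm are set against the same day 0 arrays, and p-values measure the spread between these cultures only.

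Mcm5, which with Mcm2 forms the gate through which the ring opens for DNA, had the largest control fall among the 6 Mcm probe sets used. Its control replicates read 12.34 and 12.32 at day 0, 12.06 and 12.13 at day 2, 11.81 and 11.49 at day 4, 11.69 and 11.55 at day 5, 11.52 and 11.39 at day 6, 10.82 and 10.77 at day 8, then 10.76 and 10.70 at day 10. The day 4 arrays overlapped those of days 5 and 6, and all arrays of days 8 and 10 lay below every earlier array. Day 10 was lower than day 0 by -1.60 (SE 0.181, adjusted p = 4.63e-07), a 3.03-fold fall, and 4.86% of tested genes had a lower difference. Mcm5 in the Sox17 shRNA arm read 12.39 on the single day 0 array, then 12.32 and 12.28 at day 2, 12.33 and 12.11 at day 4, 12.18 and 11.80 at day 5, 12.01 and 11.64 at day 6, 11.46 and 10.82 at day 8, then 11.16 and 10.74 at day 10. All its arrays up to day 4 were at 12.11 or above, and the day 10 fall was -1.44 (SE 0.222, adjusted p = 2.27e-05). The other Mcm5 probe sets gave -1.08 and -2.17 for the control fall.

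Mcm2, whose amino-terminal tail also binds histones, read 11.31 and 11.28 at day 0 in control cells, 11.35 and 11.45 at day 2, 10.82 and 10.72 at day 4, 10.35 and 10.46 at day 5, 10.42 and 10.15 at day 6, 10.02 and 10.01 at day 8, then 9.99 and 9.95 at day 10. Both day 4 arrays lay below all arrays of days 0 and 2. The fall from day 2 to day 4 was -0.63 (SE 0.192, adjusted p = 0.0178), beside 17.0% of all genes called lower. That call was lost without control day 2 replicate 1 (-0.68), day 2 replicate 2 (-0.58) or day 4 replicate 2 (-0.58). The fall from day 0 to day 10 was -1.33 (SE 0.192, adjusted p = 8.47e-06), or 2.51-fold. Sox17 shRNA values were 11.81 at day 0, 11.77 and 11.87 at day 2, 11.69 and 11.39 at day 4, 11.69 and 11.04 at day 5, 10.94 and 10.60 at day 6, 10.92 and 10.36 at day 8, then 10.73 and 10.39 at day 10. No array of that arm before day 6 was as low as any control array of day 4 or later, and its day 10 fall was -1.25 (SE 0.235, adjusted p = 0.000175).

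Mcm3, the subunit through which the ring docks on the origin complex with Cdc6, went from 11.33 and 11.28 at day 0 to 10.34 and 10.37 at day 10 in control cells and from 11.29 to 10.54 and 10.21 in the Sox17 shRNA arm. The falls were -0.95 (SE 0.167) and -0.92 (SE 0.204), with adjusted p of 6.93e-05 and 0.000809. Mcm6, the subunit that Cdt1 binds, went from 11.93 and 11.91 to 11.07 and 11.11 in control cells, a fall of -0.83 (SE 0.122, adjusted p = 9.46e-06). With Sox17 shRNA it went from 11.90 to 11.23 and 11.01, a fall of -0.79 (SE 0.149, adjusted p = 0.000191). For both genes, no day 10 array reached a day 0 array of its arm.

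Mcm4, a subunit of the catalytic core and a target of the Cdc7 kinase, kept its level longest. Its control arrays were between 10.98 and 11.45 on days 0 to 6, then 10.68 and 10.56 at day 8 and 10.65 and 10.63 at day 10. The control fall at day 10 was -0.71 (SE 0.125, adjusted p = 6.97e-05). Day 8 was the first day on which Mcm4 was lower than day 0 (-0.73), and it was lower than day 6 by -0.54 (SE 0.125, adjusted p = 0.0124), beside 2.68% of all genes called lower. That step was lost without control day 6 replicate 1 (-0.46) or day 8 replicate 2 (-0.48). Mcm4 with Sox17 shRNA was at 11.09 on the day 0 array, which was below the arrays of days 2 to 6, and at 10.86 and 10.58 at day 10. The fall of -0.38 (SE 0.153, adjusted p = 0.0389) was lost without day 10 replicate 2 (-0.24), and with the bioB signal as a covariate it was -0.13 (adjusted p = 0.58).

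Mcm7, which with Mcm4 and Mcm6 makes a core helicase, had control values of 12.51 and 12.53 at day 0 and of 11.84 and 11.79 at day 10, a fall of -0.71 (SE 0.109, adjusted p = 1.61e-05). With Sox17 shRNA it went from 12.54 to 11.70 and 11.62, by -0.87 (SE 0.133, adjusted p = 2.02e-05). Both arms reached their lowest levels on days 8 and 10. Over the 12 other probe sets of the Mcm genes that passed the filter, 12 had the same sign as the one used for day 10 against day 0 in each arm, and 8 had a larger difference in each arm.

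**Figure D1:**
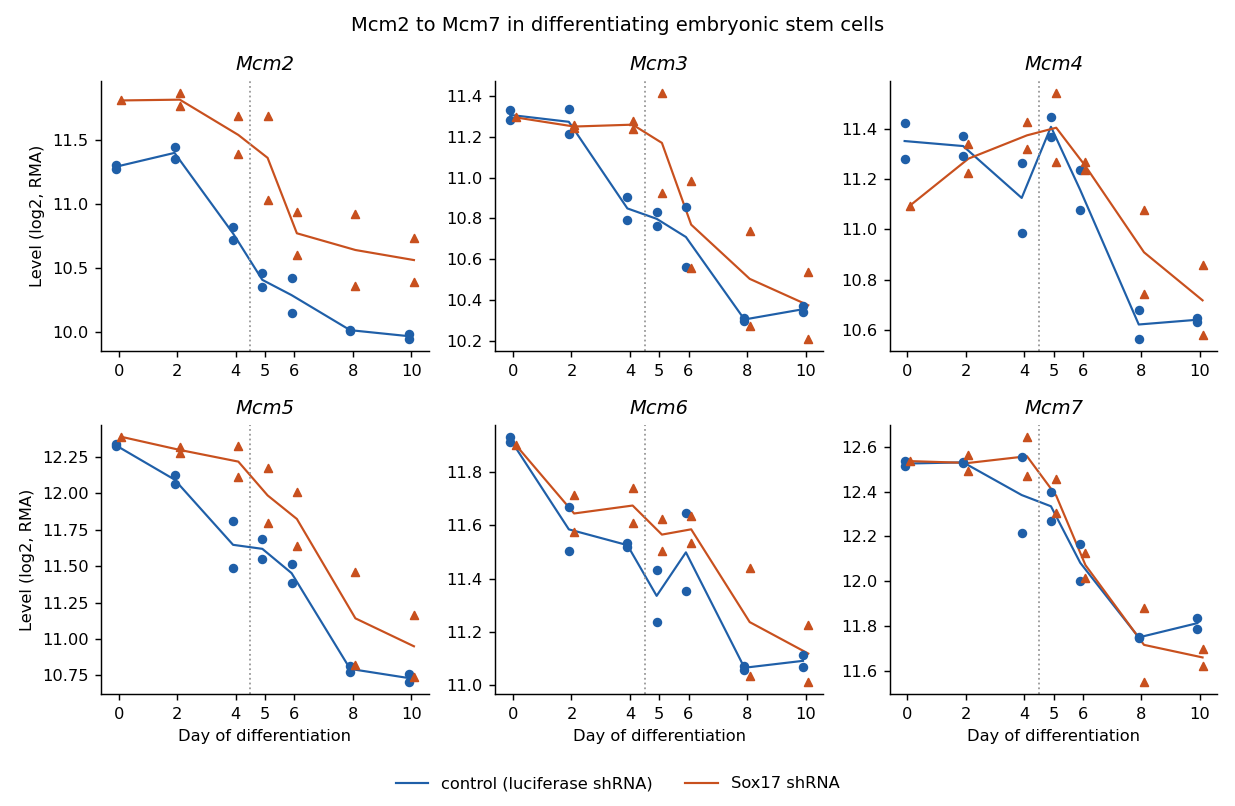
Log2 signal (RMA) of Mcm2 to Mcm7 against day of differentiation, 1 panel per gene with its own vertical range. Circles are control arrays and triangles Sox17 shRNA arrays, set slightly apart for clarity, lines join the group means, and the dotted line marks plating at 4.5 days. In control cells all 6 genes are lower on days 8 and 10 than on day 0, and the Mcm2 triangles lie above the circles on all 7 days.

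Counted by day against day 0, control cells had 1 member lower at day 2 (Mcm6, -0.34), 5 at day 4 (Mcm2, Mcm3, Mcm5, Mcm6 and Mycn), the same 5 at day 5, these and Mcm7 at day 6, and the 6 Mcm genes at day 8. The shares of all genes called lower on these days were 15.4%, 23.6%, 32.3%, 35.0% and 40.3%. With Sox17 shRNA no member was lower at day 2 or day 5, Mycn was lower at day 4, Mcm2, Mcm3, Mcm5, Mcm7 and Mycn were lower at day 6, and these with Mcm6 at day 8. There the shares of all genes were 8.65%, 25.8%, 17.2%, 29.2% and 36.6% for days 2, 5, 4, 6 and 8. The single day 0 array of that arm gives larger standard errors, and these counts are no test of a delay.

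The day 8 calls of the Mcm genes held in both arms when single arrays of the days compared were left out, except that the Sox17 shRNA day 0 array cannot be left out. Earlier control calls were less steady. The day 2 call of Mcm6 was lost when any 1 of its 4 arrays was left out (-0.26 to -0.42), as were the day 4 calls of Mcm2 (-0.47 to -0.57) and Mcm3 (-0.40 to -0.51). Mcm5 at day 4 was lost without day 4 replicate 2 (-0.52), Mcm6 at day 4 without day 0 replicate 1 (-0.39) or day 4 replicate 2 (-0.39), and Mcm3 at day 5 without day 0 replicate 1 (-0.48) or day 5 replicate 2 (-0.48). At day 6 Mcm3 and Mcm6 were lost without control replicate 2 (-0.45 and -0.28), and with Sox17 shRNA Mcm3 and Mcm5 without replicate 2 of that day (-0.31 and -0.38). With the bioB signal as a covariate, further Mcm calls against day 0 were lost, among them Mcm2 (-0.59) and Mcm5 (-0.42) at control day 5, Mcm7 at control day 6 (-0.19), and Mcm3 at Sox17 shRNA day 8 (-0.65, adjusted p = 0.0526).

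The late decline was also present among the arrays of the lower spike-in range. From day 5 to day 10, all on arrays of low bioB signal, Mcm4 (-0.77), Mcm5 (-0.89), Mcm7 (-0.52) and Mcm3 (-0.44) fell in control cells, beside 19.8% of all genes called lower and 22.9% called higher. The Mcm3 call was lost when any of the 4 control arrays of these days was left out (-0.41 to -0.48). In the Sox17 shRNA arm the bioB signal was not alike over the same days. Replicates 1 and 2 of day 5 had 7.67 and 6.76, against 6.34 and 6.48 for those of day 10. All 6 Mcm genes fell over these days in that arm, by -0.45 (Mcm6) to -1.04 (Mcm5), as did Mycn, beside 21.6% of all genes. Without Sox17 shRNA day 5 replicate 1 the values were -0.47 for Mcm2 (adjusted p = 0.0735) and -0.39 for Mcm6 (adjusted p = 0.0547), and without day 10 replicate 2 that of Mcm6 was -0.34 (adjusted p = 0.0801). The fall of Mycn (-0.69) was lost without the same arrays, at -0.51 (adjusted p = 0.14) and -0.62 (adjusted p = 0.0819). All genes called over these days split into 3044 higher and 2635 lower in control cells, or 2404 and 4510 with arrays centred on their medians, and into 3169 and 2877 in the other arm, or 2538 and 4249. Among the early arrays of high signal the genes differed. Control day 4 replicate 1 lay at -0.52 (Mcm5), -0.47 (Mcm2), -0.40 (Mcm3), -0.39 (Mcm6), -0.09 (Mcm4) and 0.03 (Mcm7) from the day 0 mean, and Sox17 shRNA day 4 replicate 1 at -0.16 (Mcm6) to 0.34 (Mcm4) from its day 0 array, with Mcm2 at -0.12 and Mcm5 at -0.06.

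The order of days was nearly the same for the 6 Mcm genes. In control cells days 0 and 2 had the highest means for Mcm2, Mcm3, Mcm5, Mcm6 and Mcm7, and days 8 and 10 the lowest for all 6. No member differed between days 8 and 10 in either arm, where 0.353% (control) and 2.65% (Sox17 shRNA) of all genes were called. Between days 6 and 8 in control cells, Mcm5 (-0.66) and Mcm6 (-0.43) fell beside Mcm4. The Mcm5 step was lost when any of its 4 arrays was left out (-0.59 to -0.72), and the Mcm6 step without day 6 replicate 1 (-0.29), day 8 replicate 1 (-0.43) or day 8 replicate 2 (-0.44). With Sox17 shRNA Mcm2 fell between days 5 and 6 (-0.59), beside 7.14% of all genes called lower, a step lost without day 5 replicate 1 (-0.26) or day 6 replicate 2 (-0.42). Mcm5 (-0.68) and Mcm7 (-0.35) fell there between days 6 and 8, beside 6.64% of all genes called lower. The Mcm5 step was lost there without day 6 replicate 1 (-0.50) or day 8 replicate 2 (-0.36), and the Mcm7 step without day 6 replicate 1 (-0.30), day 6 replicate 2 (-0.41) or day 8 replicate 2 (-0.19).

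Between arms, averaged over days 4 to 10, Mcm2, Mcm5 and Mcm3 were higher in Sox17 shRNA cells and no member was lower. These 3 of 8 members stand beside 14.8% of all genes called higher and 12.2% called lower. Mcm2 was higher by 0.69 (SE 0.086, adjusted p = 9.59e-06), or 1.61-fold, and 98.7% of tested genes had a lower difference. Mcm5 was higher by 0.38 (SE 0.081, adjusted p = 0.00181), or 1.30-fold. Mcm3 was higher by 0.21 (SE 0.074, adjusted p = 0.0424), a call lost in 14 of the 20 fits that left out a single array (values of 0.16 to 0.26) and kept only without replicate 1 of control day 4 or 6 or without replicate 2 of Sox17 shRNA day 5, 6, 8 or 10, while the Mcm2 and Mcm5 calls held in all 20. The differences of Mcm4 (0.14, SE 0.056), Mcm6 (0.13, SE 0.054) and Mcm7 (0.005, SE 0.049) did not pass, with adjusted p of 0.0704, 0.0806 and 0.965. This fit takes arrays of different days as independent. In the Sox17 shRNA arm, however, the replicate difference correlated between days at 0.053 to 0.796, so these standard errors may be too small. Fits without a single array do not address this. With arm and replicate number as a random block, Mcm2 and Mcm5 kept their calls and Mcm3 did not.

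The Mcm2 arrays of the Sox17 shRNA arm lay above both control arrays on 7 of 7 days, including days 0 and 2, when control Sox17 read only 3.75 to 6.17. At day 0 the Mcm2 difference was 0.52 (SE 0.235, adjusted p = 0.329) and at day 2 it was 0.42 (SE 0.192, adjusted p = 0.343). The mean over days 4 to 10 exceeded that over days 0 and 2 by 0.22 (SE 0.174, adjusted p = 0.605), so a larger Mcm2 difference after day 2 was not detected, and no member passed this comparison, in which 4.66% of all genes were called. Mcm5 arrays of the 2 arms did not overlap on 6 of 7 days, with the Sox17 shRNA arm higher. The share of all tested genes that separate on as many days was not counted, so the counts for Mcm2 and Mcm5 are description only. No member passed at day 0 or day 2 alone, where 1.89% and 2.54% of all genes were called.

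On single days Mcm2 was higher in Sox17 shRNA cells at day 4, by 0.77 (SE 0.192, adjusted p = 0.0267), and at day 5, by 0.95 (SE 0.192, adjusted p = 0.00464). At day 4, 3.33% of all genes were called higher and 1.81% lower, 443 and 241 genes, or 376 and 312 after quantile normalization of the gene table. At day 5, 6.15% of all genes were called higher. At day 4 Mcm2 no longer passed without control replicate 1 (0.82), control replicate 2 (0.72) or Sox17 shRNA replicate 1 (0.62), and at day 5 without control replicate 1 (0.90) or Sox17 shRNA replicate 1 (0.63). The day 4 call was also lost in the limma fit of only those groups (adjusted p = 0.289). The day 5 call was lost in 1 of the 11 other alternatives (adjusted p = 0.0925). At day 4 the Mcm2 difference was 0.87 between the replicates of high spike-in signal and 0.67 between those of low signal, and for Mcm5 these values were 0.52 and 0.62. The differences of Mcm2 at days 6, 8 and 10 were 0.48, 0.63 and 0.60, with adjusted p of 0.187, 0.0759 and 0.0579. No member passed at days 6 and 8, where 5.20% and 4.82% of all genes were called.

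**Figure D2:**
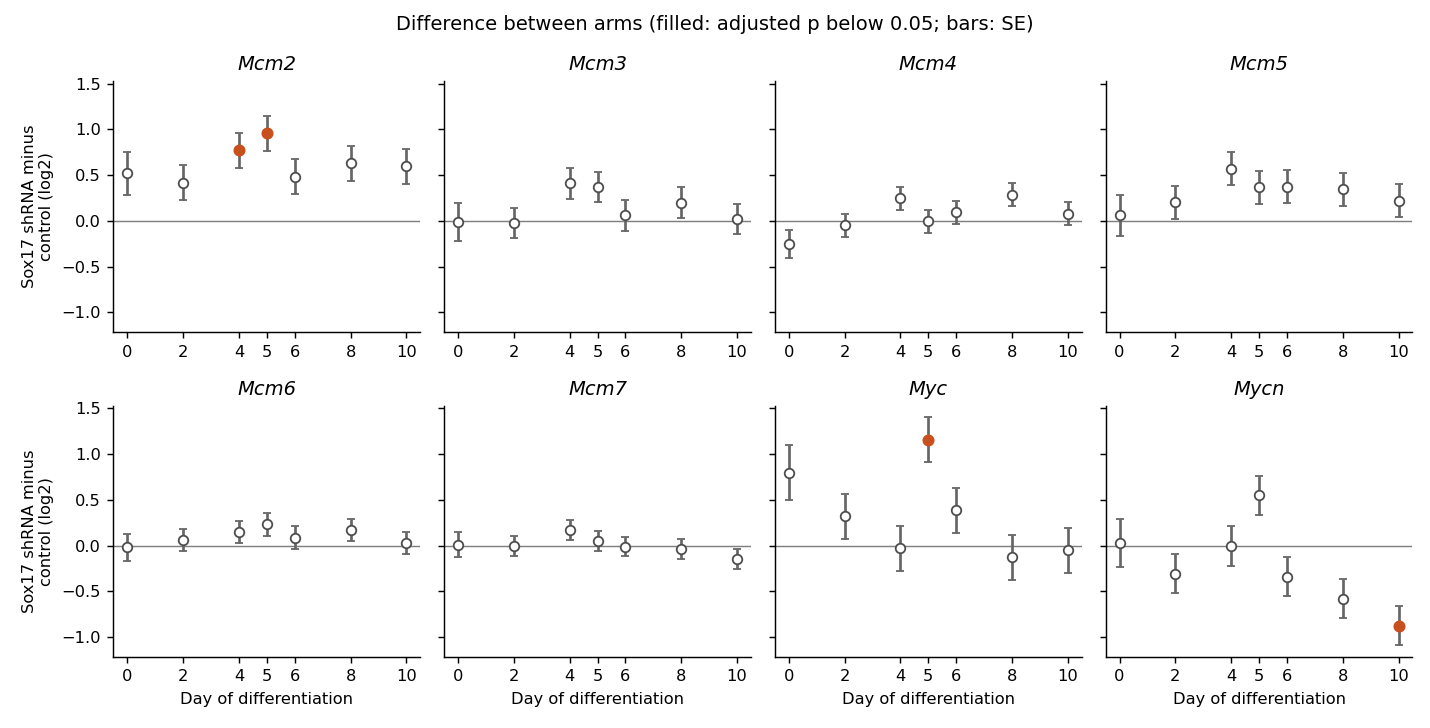
Difference in log2 signal, Sox17 shRNA minus control, of the 8 members against day of differentiation, with bars of 1 standard error from the limma fit and filled points where the adjusted p was below 0.05. Filled points are Mcm2 at days 4 and 5, Myc at day 5 (1.16) and Mycn at day 10 (-0.88).

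The 2 replicates of the Sox17 shRNA arm also differed from each other. On each of days 4, 5, 6, 8 and 10 replicate 1 was above replicate 2 for Mcm2, Mcm4, Mcm5, Mcm6 and Mcm7, by 0.30 to 0.65 for Mcm2 and by 0.22 to 0.64 for Mcm5, and for Mcm3 on 4 of these 5 days. The 3′ to 5′ actin difference of replicates 1 and 2 was 0.35 and 0.86 at day 4 and 0.45 and 0.75 at day 6. It was 0.48 and 0.43 at day 5, 0.46 and 0.44 at day 8, and 0.53 on both arrays of day 10. The bioB signal was 9.37 and 6.83 at day 4, 7.67 and 6.76 at day 5, and closer on later days. The part of these array traits in the replicate difference was not tested. Replicate 1 was the culture with the lower Sox17 signal on all of these days. Its pluripotency marker mean (10 of 10 genes measured, among them Pou5f1 and Nanog) was 8.61 at day 5, against 7.32 in replicate 2, and 7.47 against 6.59 at day 6, while at days 4, 8 and 10 it read 9.01 against 8.96, 6.92 against 6.89 and 7.27 against 7.30. The visceral endoderm mean was higher in replicate 1 on all 5 days, with 7.09 against 4.98 at day 4, 6.89 against 5.53 at day 5 and 8.30 against 6.21 at day 10. It was already higher at day 2 (7.41 against 5.51), when Sox17 read 5.12 and 4.48. The endoderm mean, Sox17 included, was 5.74 against 8.39 at day 4 and 7.32 against 8.31 at day 5, and closer afterwards. The endothelium mean was higher in replicate 1 at days 6, 8 (7.80 against 6.62) and 10, and lower at days 4 and 5. The erythroid mean was 7.88 against 5.51 at day 4, 8.57 against 5.79 at day 5 and 7.90 against 9.92 at day 6. It was 10.84 against 10.40 at day 8 and 9.56 against 8.25 at day 10. Of the 10 pluripotency genes 5, Nanog, Zfp42, Esrrb, Nr0b1 and Dppa3, were higher in the Sox17 shRNA arm over days 4 to 10, and Klf4 was lower. Over both arms the pluripotency mean was 11.11 to 11.30 at day 0. At day 4 it was 8.12 to 8.23 in control and 8.96 to 9.01 in Sox17 shRNA cells, at day 5 it was 6.89 to 7.02 and 7.32 to 8.61, and at day 10 it was 6.98 to 6.99 and 7.27 to 7.30.

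Markers of other cell types moved between the arms as well. All 8 cardiac muscle markers were lower in Sox17 shRNA cells over days 4 to 10 (median -2.13), and their mean at day 10 was 10.51 to 10.52 in control and 7.64 to 7.89 in Sox17 shRNA cells. All 5 measured erythroid markers were higher (median 2.08), with means at day 8 of 7.94 to 8.35 and 10.40 to 10.84. Of the markers of other types, 3 of 6 fibroblast and mesenchyme genes were higher and 1 lower, 5 of 6 endoderm genes (Sox17 included) and 3 of 5 visceral endoderm genes were lower, 0 of 5 endothelial genes passed, and of 4 neural genes 1 was higher and 1 lower. The part of these cell types in the differences of the members was not tested.

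Myc, the member induced by growth factors in many cells, had no steady course and was measured by 1 probe set. Control replicates read 7.0 and 6.84 at day 0, 7.95 and 8.39 at day 2, 7.69 and 7.52 at day 4, 6.50 and 6.83 at day 5, 7.93 and 7.49 at day 6, 7.66 and 7.90 at day 8, then 7.40 and 7.44 at day 10. The day 2 arrays were the highest of the control arm and the day 5 arrays the lowest. Day 2 was higher than day 0 by 1.25 (SE 0.245, adjusted p = 0.000679), or 2.38-fold, beside 16.6% of all genes called higher. Myc was also higher than at day 0 on day 8, by 0.86 (adjusted p = 0.00447), or 0.58 (adjusted p = 0.15) with the bioB signal as a covariate, and on days 4 (0.69) and 6 (0.79), beside 31.9%, 22.5% and 28.1% of all genes called higher. The day 4 call was lost when any 1 of its 4 arrays was left out (0.60 to 0.77), and the day 6 call without day 0 replicate 2 (0.71) or day 6 replicate 1 (0.57). Of the 11 other alternatives, 1 lost the day 4 call (adjusted p = 0.0794) and 1 the day 6 call (adjusted p = 0.18). From day 4 to day 5 Myc fell by 0.94 (SE 0.245, adjusted p = 0.0207), beside 6.17% of all genes called lower, and from day 5 to day 6 it rose by 1.05 (SE 0.245, adjusted p = 0.00639), beside 11.2% called higher. Day 10 was higher than day 5 by 0.75 (SE 0.245, adjusted p = 0.0198), a call lost without day 5 replicate 1 (0.59), day 10 replicate 1 (0.77) or day 10 replicate 2 (0.73). The fall from day 4 was lost without day 4 replicate 1 (-0.86) or day 5 replicate 1 (-0.78), and the rise to day 6 without day 5 replicate 1 (0.88) or day 6 replicate 1 (0.83).

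Myc in the Sox17 shRNA arm read 7.71 at day 0, 8.57 and 8.40 at day 2, 7.29 and 7.86 at day 4, 7.47 and 8.17 at day 5, 8.16 and 8.02 at day 6, 7.47 and 7.84 at day 8, then 7.10 and 7.63 at day 10. Both day 5 arrays were above both control arrays of that day. Between days 2 and 4 Myc fell in this arm by 0.91 (SE 0.245, adjusted p = 0.0126), beside 11.6% of all genes called lower, a step lost without day 2 replicate 1 (-0.83) or day 4 replicate 1 (-0.62). At day 5 Myc was higher than in control by 1.16 (SE 0.245, adjusted p = 0.00677), or 2.23-fold, and 99.0% of tested genes had a lower difference. That call was lost without control replicate 1 (0.99) or Sox17 shRNA replicate 2 (0.81), and in 1 of the 11 other alternatives (adjusted p = 0.0883). Averaged over days 4 to 10 the difference of 0.27 (SE 0.110, adjusted p = 0.0835) did not pass. The change of Myc from day 5 to day 10 was lower in the Sox17 shRNA arm by -1.21 (SE 0.347, adjusted p = 0.0546), which did not pass either.

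Mycn, the family member that embryonic stem cells express most, fell early in control cells and was higher again later. Its control replicates read 10.47 and 10.50 at day 0, 10.35 and 10.45 at day 2, 9.62 and 9.93 at day 4, 9.41 and 9.32 at day 5, 9.98 and 9.81 at day 6, 10.02 and 10.02 at day 8, then 10.09 and 10.11 at day 10. The day 5 arrays were the lowest, at -1.12 from day 0 (SE 0.214, adjusted p = 0.000233), or 2.17-fold, beside 32.3% of all genes called lower, and all arrays of days 8 and 10 were above all those of days 4 to 6. Mycn was also lower than at day 0 on day 4 (-0.71), a call lost without day 0 replicate 2 (-0.69) or day 4 replicate 1 (-0.56), and on day 6 (-0.59), a call lost without day 0 replicate 1 (-0.60), day 0 replicate 2 (-0.57) or day 6 replicate 2 (-0.50). The rise from day 5 to day 10 was 0.73 (SE 0.214, adjusted p = 0.0105), lost without control day 5 replicate 2 (0.69) or day 10 replicate 2 (0.72). At day 10 the difference from day 0 was -0.38 (SE 0.214, adjusted p = 0.116). It passed under the alternatives that called 7 control members lower.

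Mycn in the Sox17 shRNA arm read 10.51 at day 0, 10.13 and 10.06 at day 2, 9.33 and 10.21 at day 4, 10.09 and 9.73 at day 5, 9.86 and 9.25 at day 6, 9.43 and 9.46 at day 8, then 9.29 and 9.15 at day 10. The replicates of day 4 were 0.88 apart, and the arrays of days 8 and 10 lay below all control arrays of those days. The day 4 fall of -0.74 was lost without day 4 replicate 1 (-0.30), and the day 6 fall of -0.95 without day 6 replicate 2 (-0.64). The fall to day 10 was -1.29 (SE 0.262, adjusted p = 0.000374), or 2.44-fold. At day 10 Mycn was lower than in control by -0.88 (SE 0.214, adjusted p = 0.0125), beside 4.38% of all genes called lower. That call was lost without control replicate 1 (-0.89), control replicate 2 (-0.87) or Sox17 shRNA replicate 2 (-0.80). The differences at days 5, 6 and 8 were 0.55, -0.34 and -0.58, with adjusted p of 0.125, 0.492 and 0.158.

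The change of Mycn from day 5 to day 10 differed between the arms by -1.42 (SE 0.303, adjusted p = 0.00985), and Mycn was the only one of the 8 members to pass this comparison, in which 4.53% of all genes were called. Without Sox17 shRNA day 5 replicate 1 the value was -1.25 (adjusted p = 0.0621). The other Mycn probe sets had the same sign but smaller differences, -0.89 (SE 0.341) and -0.18 (SE 0.294). They also placed the control difference of day 10 from day 0 at -1.42 and -1.42, where the probe set used gave -0.38, the control change from day 5 to day 10 at 0.42 and -0.13, and the difference between arms at day 10 at -0.39 and -0.06. The late recovery of Mycn in control cells and its size between arms therefore depend on the probe set. From day 2 to day 10, no member's change differed between the arms, beside 3.75% of all genes called.

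Over days 6, 8 and 10 together, a window chosen after seeing the data, Mycn was lower in Sox17 shRNA cells by -0.60 (SE 0.124, adjusted p = 0.0017), while Mcm2 was higher by 0.57 (SE 0.111, adjusted p = 0.00103) and Mcm5 by 0.31 (SE 0.104, adjusted p = 0.04). These 3 calls among 8 members stand beside 21.3% of all genes called. The other Mcm genes did not pass there, with Mcm7 at -0.07 (SE 0.063) and Mcm6 at 0.10 (SE 0.070).

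**Figure D3:**
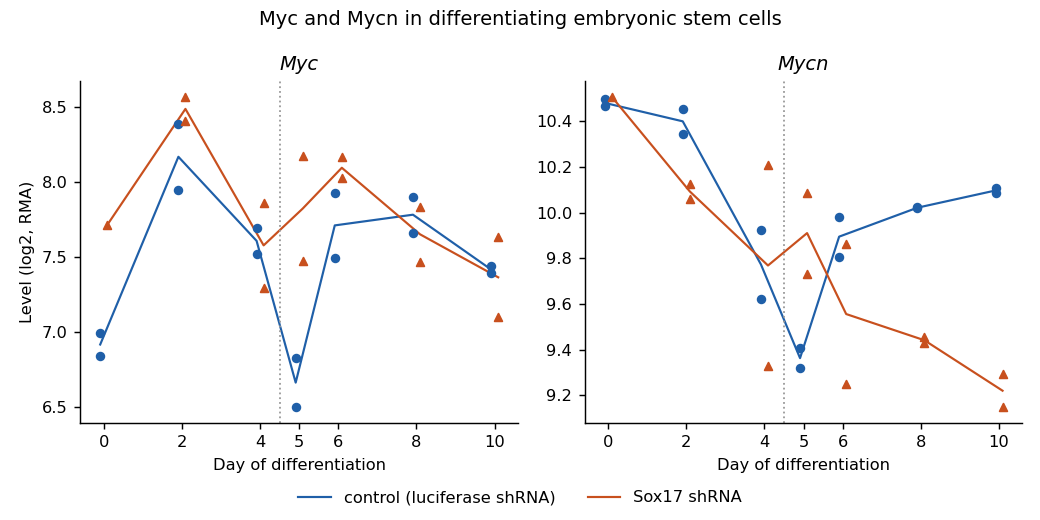
Log2 signal (RMA) of Myc and Mycn against day of differentiation, with circles for control arrays, triangles for Sox17 shRNA arrays, lines through the group means and a dotted line at plating. Control Myc is lowest at day 5 (6.50 and 6.83), and Mycn on days 8 and 10 is lower in both Sox17 shRNA arrays than in both control arrays.

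Over the 27 arrays, which share days and arms, the 15 pairs of Mcm genes had Pearson correlations between 0.68 and 0.97 with a median of 0.88. The closest pair was Mcm3 with Mcm5, and the loosest Mcm2 with Mcm4. Myc correlated with the 6 Mcm genes at -0.04 to 0.29 and Mycn at 0.15 to 0.53, and Myc with Mycn at 0.23. The genes most like the mean of the 6 standardised Mcm genes were Tipin (0.964), a fork protection factor, Cenph (0.964) and Cenpu (0.960), both centromere proteins, Cdca3 (0.962), a gene of mitotic entry, and Nip7 (0.960), a ribosome biogenesis factor. For Myc they were Ppp1r14b (0.894), Qser1 (0.791), Rbm14 (0.790), Ufm1 (0.779) and Fasn (0.763), and for Mycn Dcaf1 (0.850), Sox2 (0.836), Cenpv (0.836), Epop (0.810) and Dnajc21 (0.807). Arrays of the same day and arm are not independent points here, so these correlations are given as description, without a test.

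Other genes of DNA replication fell with the Mcm genes in control cells from day 0 to day 10. Of the 10 other licensing genes measured, 9 were lower and 1, Orc4, was higher by 0.23 (median of the list -1.46), among the lower ones Orc1 (-2.31, SE 0.162) and Orc5 (-2.07, SE 0.145) of the origin recognition complex. Of 15 genes of helicase activation and Mcm relatives, 14 were lower (median -1.18), with Gins1 at -1.85, a GINS subunit, and Mcm10 at -1.84, which acts when the helicase starts. Of 23 replication fork genes 22 were lower (median -1.16), with the polymerase subunits Pold1 at -1.91 and Pole2 at -1.89. Of 11 nucleotide supply genes 10 were lower (median -0.92), with Gart, an enzyme of purine synthesis, at -2.32 and Dctpp1, a nucleotide pyrophosphatase, at -1.65. Of 14 mitosis genes 12 were lower (median -0.86), with Birc5 and Ccnb2 both at -1.41. The corresponding median over all genes was -0.13, with 40.0% called lower.

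Genes of cell cycle control and of the Max network moved in both directions. Of all genes, 31.5% were called higher and 40.0% lower in this comparison, with a median of -0.13. Of 13 E2F and pocket protein genes 3 were higher (E2f3, E2f6 and Rb1) and 1 lower (median -0.16), with E2f3 at 1.49 (SE 0.199) and E2f1 at -1.20 (SE 0.157). Of 14 genes of cyclins, Cdks and Cdk inhibitors before and in S phase, 9 were higher and 2 lower, Ccne1 and Ccna2 (median 0.75), beside 31.5% of all genes called higher. The largest were Ccnd2 (5.23, SE 0.196), a D-type cyclin, and Cdkn1c (4.44, SE 0.327), a Cdk inhibitor that marks cells leaving the cycle. Of 11 genes of the Max network 3 were higher (Mycl among them) and 4 lower, Max, Mga, Mlx and Mlxipl (median -0.12). These counts and this median are close to those of all genes. The larger rises were those of Mxd4 (2.04, SE 0.310) and Mxi1 (1.71, SE 0.212), which compete with Myc for Max. Of 20 known Myc targets of ribosome production and growth 17 were lower and none higher (median -0.81), with Ppan at -1.51 and Nop56 at -1.46, while Myc itself was at 0.50 (SE 0.245, adjusted p = 0.0767).

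Between arms, the medians of the same lists lay between 0.02 and 0.21. Over days 4 to 10, 3 of 10 licensing genes were higher in Sox17 shRNA cells and none lower (median 0.04), Orc2 together with Orc6 (0.64, SE 0.106) and the loading factor Cdt1 (0.50, SE 0.089). Helicase activation had 3 of 15 higher, all GINS subunits, and Topbp1 lower (median 0.065), with Gins4 at 0.57 and Gins2 at 0.54. The replication fork had 5 of 23 higher (Rfc5, Rpa2 and Lig1 among them, median 0.08), with Rpa3 at 0.47 and Dna2 at 0.37, and nucleotide supply 5 of 11 (Dut, Umps and Atic among them, median 0.18), with Cad at 0.48 and Rrm2 at 0.35. The E2F list had 6 of 13 higher (median 0.13), with Tfdp1, the E2F partner, at 0.58 and Rbl2, a pocket protein, at 0.48. The cyclin list had 5 of 14 (Ccnd3, Ccne1 and Cdkn1b among them, median 0.21), with Ccnd1 at 0.58 and Ccne2 at 0.39, and mitosis 1 of 14 (median 0.11), Foxm1 at 0.37. All genes had a median of 0.01, with 14.8% called higher. In the Max network 0 of 11 were higher and 1 lower, Mxi1 at -0.75 (SE 0.095, adjusted p = 1.15e-05), and among the Myc targets 4 of 20 were higher (Odc1, Pa2g4 and Hspd1 among them) and 1 lower, with Srm, an enzyme of polyamine synthesis, at 0.34 and Ldha, a glycolytic enzyme, at -0.39.

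Nucleotide supply and Myc targets are also given by day, picked after their counts were seen. At day 5, 6 of 11 nucleotide supply genes and 8 of 20 Myc targets were higher and none lower, beside 6.15% of all genes called higher. At day 10, none of either list was higher, and 1 Myc target, Ldha, was lower, beside 5.62% of all genes called higher. Whether the difference itself changed between these days was not tested over the lists. Genes named here without a value of their own were chosen after their values were seen. The lists overlap in function with the members and were chosen with results of these data known, so their counts describe the pathway and are no independent test.

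**Figure D4:**
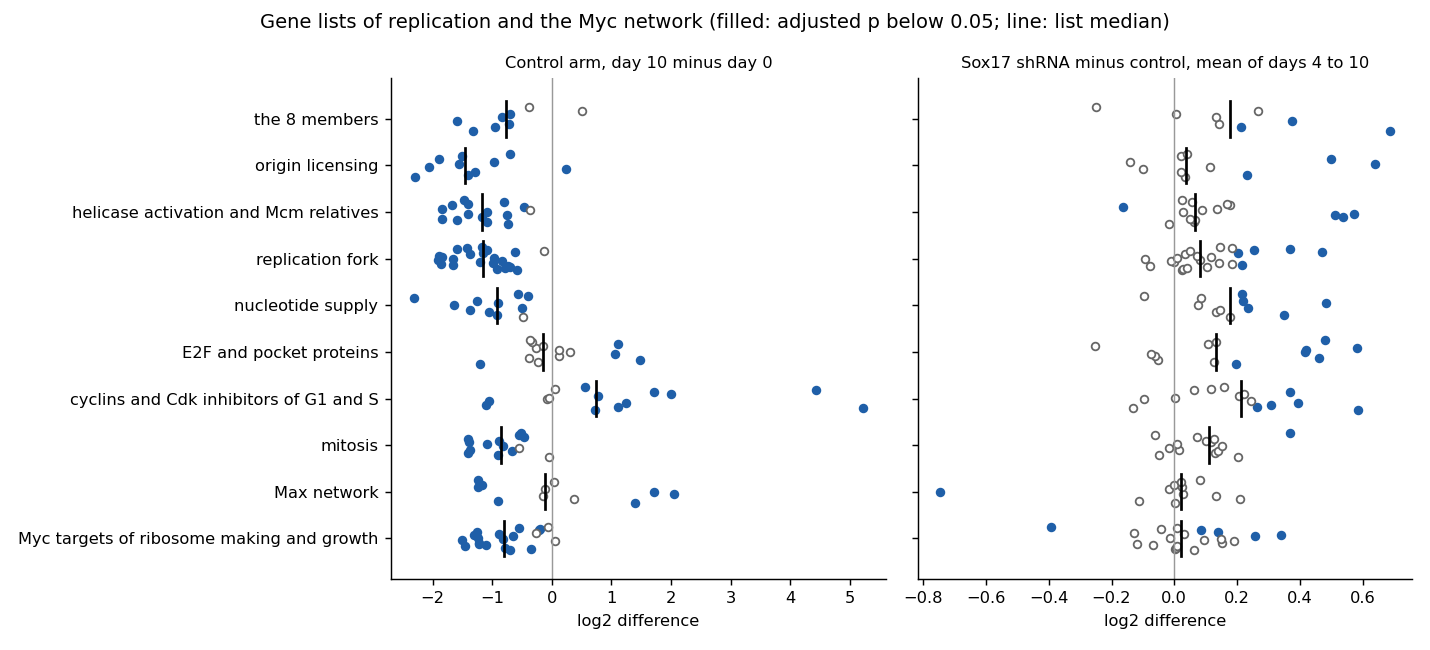
Log2 differences of the genes of each list (1 point per gene, filled where the adjusted p was below 0.05, vertical bar at the list median) for control day 10 minus day 0 on the left and for Sox17 shRNA minus control over days 4 to 10 on the right. On the left the licensing, helicase, fork, nucleotide, mitosis and Myc target medians lie between -0.81 and -1.46, and the cyclin median is 0.75. On the right the list medians lie between 0.02 and 0.21.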

How the data were processed

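RNA of 27 cultures was measured on Affymetrix mouse arrays, 1 array each. Values are the log2 signals deposited by the authors, made with RMA per the submitters' processing notes. Its version, and whether all arrays were normalized in 1 run, is not given in the sources used here. Of 45101 probe sets, 34958 had a single gene symbol in the platform annotation, 932 several and 9211 none. Probe sets were kept when 2 or more arrays exceeded 5.53, the median of the whole table (23536, for 13297 genes), and the brightest probe set on average stood for a gene. Probe sets with suffixes such as _s_at or _x_at may also detect related transcripts.

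A mean for each of 14 groups of arm and day was fitted to all arrays with limma 3.58.1 (R 4.3.3), with moderated variances, an intensity trend, 13 residual and 4.7 prior degrees of freedom, and Benjamini-Hochberg adjustment. The lone Sox17 shRNA array of day 0 takes its spread from the other groups. The fit was run on simulated data with errors drawn independently for each array. That run cannot show how the fit behaves where replicate differences persist over days. The number of arrays limits precision.

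Named genes were the 8 members, the 2 genes per list with the largest called difference in each of 2 comparisons, and the 5 genes most correlated with each pattern. Other genes, such as small groups within a list and markers, were named after their values were seen. The members and lists were chosen with earlier results of these data known. List genes without a tested probe set are not reported here. Alternatives were 2 other normalizations, other filters, probe sets and variance settings, replicate blocks, the spike-in covariate, only the groups compared, and leaving out each array. Chosen after seeing the data were leaving out 2 arrays of high 3′ to 5′ actin difference, the comparison of days 4 to 10 with days 0 and 2, days 6 to 10 alone, and comparisons within arrays of like spike-in signal.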

Additional observations from a re-analysis of the deposited data

Results flagged for a closer look

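The change of Mycn from day 5 to day 10 differed between the arms by the test of the difference itself. Mycn rose by 0.73 in control cells and fell by 0.69 in Sox17 shRNA cells, a difference of -1.42 (SE 0.30, adjusted p = 0.00985 in limma). Each of these changes lost its call in 2 of 4 fits without 1 array, the control rise at 0.69 and 0.72 and the Sox17 shRNA fall at -0.51 and -0.62. The difference lost its call without Sox17 shRNA day 5 replicate 1 (-1.25). The other Mycn probe sets gave -0.89 and -0.18. No cause was tested.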

How the results depend on the processing

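No called value changed direction under the alternatives. However, 1 of the 2 other Mycn probe sets, fitted on its own, put the control change from day 5 to day 10 at -0.13 instead of 0.73. It put the mean difference between arms over days 4 to 10 at 0.02 instead of -0.25. The remaining Mycn probe set gave 0.42 and -0.12 for these values. Of the results for single members that passed, 1122 of the alternative values kept the call and 166 lost it. The control falls of the 6 Mcm genes from day 0 to day 10, and the Mcm2 and Mcm5 differences between arms over days 4 to 10, were kept in every alternative and every fit without 1 array. The spike-in covariate lost 18 of 84 calls and fits of only the groups compared 16. Leaving out 1 array gave 2 to 5 members higher between arms over days 4 to 10, where 5 came without Sox17 shRNA day 8 replicate 2. Without the 2 arrays of high actin difference 3 of 14 calls were lost.

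Nothing in the labels ties like-numbered cultures of the 2 arms together. Their replicate differences correlated at 0.683 on day 4, where the number also matches the spike-in signal, and at 0.099 to 0.220 on the other days, with 1 day not above 0.1, so the numbers were not taken as a pairing. With the replicate number as a fixed block the members higher between arms over days 4 to 10 were 4, and no call was lost. With arm and number as a random block (consensus correlation 0.056) they were 2, since Mcm3 was lost (adjusted p = 0.0609). In the Sox17 shRNA arm the replicate difference correlated between days at 0.053 to 0.796, in the control arm at -0.230 to 0.179.

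Counts over all genes moved more. At day 4 the arms differed in 684 genes, in 1099 with the spike-in covariate, 1369 without the 2 arrays of high actin difference, 0 in the limma fit of only those 4 arrays (1034 at an unadjusted p below 0.05), and 216 to 1217 without 1 array. At day 5 they differed in 1249 genes, in 244 in the fit of those groups alone, and in 315 to 1710 without 1 array. At day 10 they differed in 1330 genes and in 540 to 1007 without 1 array. Control day 10 against day 5 had 5679 called genes, 9027 in the fit of those groups alone and 3631 without control day 5 replicate 1. The change of Myc between arms from day 5 to 10 had adjusted p of 0.0332 to 0.0469 under 6 alternatives.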

Other observations

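Among the lists searched, CCAAT was in 12 of 13 promoters of mitosis genes (92.3%), and in 21.1% to 54.5% in the other lists. Its share was 37.4% of all promoters and 37.2% of those of tested genes. The E-box CACGTG was in 7 of 19 promoters of the Myc targets (36.8%) and 5 of 23 of the replication fork (21.7%). In the other lists it was in 7.69% to 9.09%, against 7.15% of all promoters and 9.67% of those of tested genes. The E2F-type match was in 2 of 12 licensing promoters (16.7%), 2 of 11 of helicase activation (18.2%) and 4 of 23 of the replication fork (17.4%). It was in 1 of 13 mitosis promoters (7.69%) and 1 of 19 of the Myc targets (5.26%). The share was 0.813% of all promoters and 1.46% of those of tested genes. These shares are descriptions of letters in the RefSeq promoter windows.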
